A study of Homo sapiens with 4 samples.

Results

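The 10 genes described here encode proteins reported as substrates of the palmitoyltransferase ZDHHC15 or linked to the sorting of such substrates. They are SORT1, IGF2R and M6PR (sorting receptors), VPS35 and VPS26A (retromer), PI4K2A (a lipid kinase), SNAP23 (a membrane fusion protein), and IL6ST, CADM4 and CD151 (cell surface proteins). They were taken by symbol from a table of 58735 genes and lie on 9 chromosomes. RNA was sequenced from HCC1954, an established human breast cancer cell line, in 2 samples with a scrambled control hairpin (shCON) and 2 samples with a hairpin against ZDHHC15 (shZDHHC15), both carried by the GIPZ lentiviral vector. The labels call the knockdown stable in one field and transient in another, and they do not say whether samples 1 and 2 are separate cultures, clones or hairpins, so the p-values measure the spread between these samples only.

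ZDHHC15 belongs to the family of enzymes that attach palmitate to cysteine residues of proteins, which anchors those proteins in membranes and steers their traffic. Sortilin and the cation-independent mannose 6-phosphate receptor are classic examples, since palmitoylation of their cytoplasmic tails favours their recovery from endosomes by retromer, the coat that returns receptors to the trans-Golgi network. Palmitoylation changes a protein and not its transcript, so RNA counts measure how much message for each substrate the cells held and carry no information on how much of the protein was palmitoylated.

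The targeted gene, ZDHHC15, had 17617 and 15716 counts with the control hairpin and 0 in each shZDHHC15 sample. A hairpin usually leaves part of its target transcript, and how the count came to be exactly 0 was not tested. Total counts lay between 17560982 and 19118704 per sample, and a count of 0 in a sample allows up to 3 counts, a limit that covers counting error only. All 8 epithelial markers examined had counts in every sample, with a summed level of 17745 and 19184 CPM (counts scaled to a common library size with TMM factors) in shCON and 10209 and 10385 CPM in shZDHHC15. Among them 6 were lower and 1 was higher in shZDHHC15. Of 12 leukocyte markers, 5 or 6 were at 0 in each sample (among them CD3D, CD3E, CD2 and MS4A1, at 0 in all 4), and PTPRC had at most 4 counts. Between 6 and 8 of the 12 had 3 counts or fewer in a sample. The 2 with enough counts to be tested were both called, 1 higher and 1 lower in shZDHHC15. The summed level of the 12 was 9.93 and 11.9 CPM in shCON and 6.28 and 7.13 CPM in shZDHHC15. Of 11 fibroblast and endothelial markers, LUM was at 0 throughout and between 2 and 5 were at 0 in a sample. The summed level of these 11 was 54.6 and 57.6 CPM in shCON against 113 and 106 CPM in shZDHHC15, carried by COL1A1, PECAM1 and CDH5. The part of these marker differences in the results was not tested, and fewer cells of a type and less RNA per cell cannot be told apart in bulk samples.

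In shZDHHC15 cells the receptor gene IGF2R rose 1.88-fold and the tetraspanin gene CD151 fell to 0.632 of its shCON level. VPS35 was 1.21-fold higher, a call that was lost when gene length was taken into account. SORT1, M6PR, VPS26A, PI4K2A, SNAP23, IL6ST and CADM4 did not pass the test. All 10 genes had enough counts to be tested, and 3 of them (30%) had an adjusted p under 0.05 by edgeR's quasi-likelihood test, 2 higher and 1 lower. Of all 15817 genes tested, 42.0% passed the same limit, 21.7% higher and 20.3% lower, so the share among the 10 genes was not above the background. Their median log2 fold change was 0.03 (0.02 over all genes tested) and their median absolute log2 fold change was 0.25 (0.37 over all genes). In 7 of the 10 genes the samples of the groups did not overlap, which held for 72.5% of all genes tested.

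**Figure D1:**
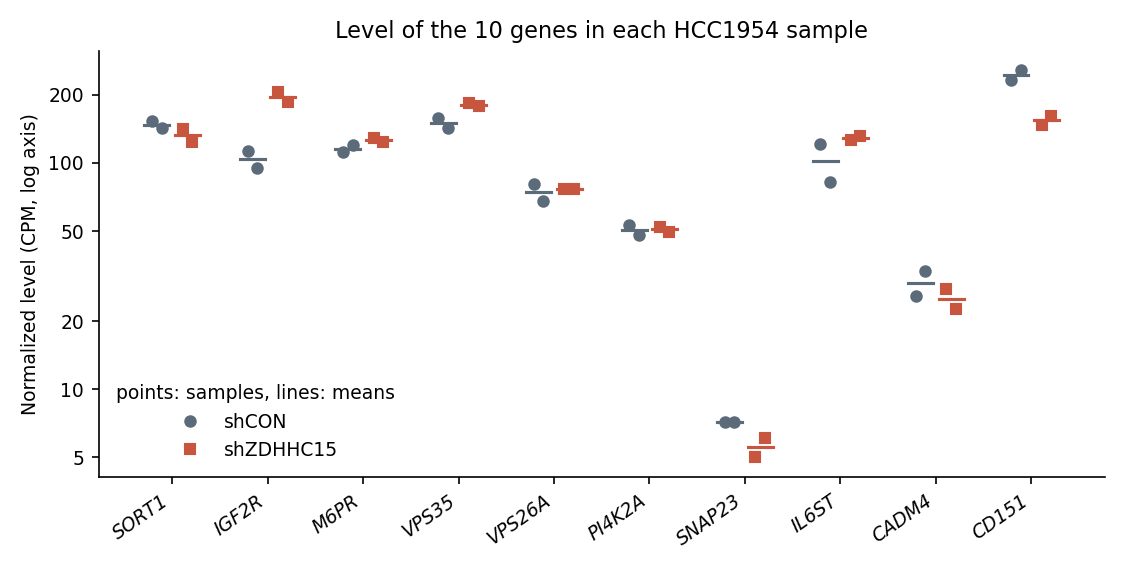
Normalized level (CPM, log axis) of the 10 genes in each sample, with circles for shCON, squares for shZDHHC15 and lines for the means of 2 samples. IGF2R separates upward (113 and 94.7 against 206 and 185 CPM) and CD151 downward (231 and 257 against 147 and 161 CPM), and the points of VPS26A, PI4K2A and CADM4 overlap.

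Long genes were on the whole higher in shZDHHC15 cells. When the protein-coding genes tested were divided into 8 classes of gene length, the median log2 fold change went from -0.28 in the shortest class (207 to 2370 bases) to 0.31 in the longest (9879 to 118976 bases). A trend of the same sign lay between the shCON samples, where replicate 1 minus replicate 2 had a median of -0.13 in the shortest class and 0.17 in the longest. The trend between the shZDHHC15 samples was smaller, from -0.03 to 0.08. The test was therefore repeated with offsets that remove each sample's trend with gene length, an alternative chosen after seeing the data. It brought the class medians to between -0.07 and 0.01. Gene length here is the length given with the counts. For each of the 10 genes it equals the bases of its merged exons and not its span on the chromosome. By this measure they run from 2246 bases (CADM4) to 17843 bases (IGF2R), and their values with the length correction are given below. The correction removes any change that tracks length, whatever its source, and what gave rise to the trend was not tested.

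**Figure D2:**
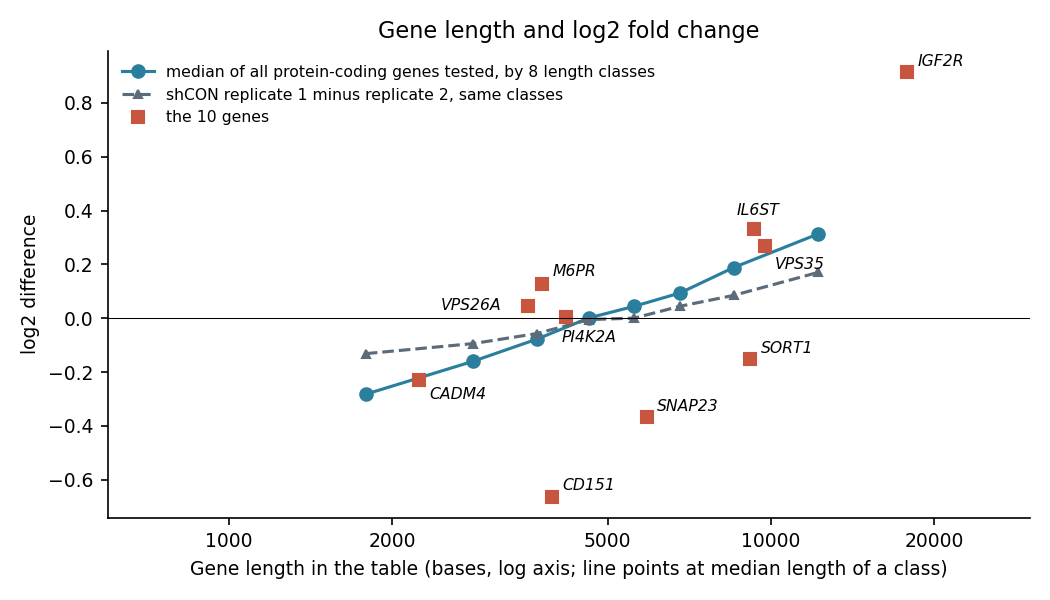
Log2 fold change of shZDHHC15 over shCON against gene length (log axis), in bases of merged exons for the 10 genes. Squares mark the 10 genes, and circles the median of all protein-coding genes tested in each of 8 length classes. Triangles give shCON replicate 1 minus replicate 2 in the same classes. Both lines climb with length. VPS35, IL6ST, PI4K2A, CADM4 and VPS26A lie close to the line of class medians, and IGF2R, CD151, SNAP23 and SORT1 lie away from it.

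The sorting receptors did not move together. IGF2R (ENSG00000197081, chromosome 6, 159969099 to 160113507, plus strand, GRCh38) encodes the cation-independent mannose 6-phosphate receptor, which carries newly made lysosomal enzymes to endosomes and takes up insulin-like growth factor 2 for degradation. It received 2052 and 1598 counts in shCON and 3829 and 3637 counts in shZDHHC15, or 113 and 94.7 CPM against 206 and 185 CPM. Both shZDHHC15 samples lay above both shCON samples. The mean rose from 104 ± 12.6 to 195 ± 14.4 CPM (SD, n = 2). On the log2 scale this was a change of 0.91, with a standard error of 0.106 and a 95% interval of 0.69 to 1.14 (adjusted p = 8.73e-06). Within its length class, 85.2% of genes had a lower log2 fold change. With the length correction the value was 0.50 (standard error 0.0834, adjusted p = 2.66e-04), and the call held under all 14 alternatives. Over the 4 samples, the protein-coding genes whose levels, centred on the shCON mean, ran closest to IGF2R by Euclidean distance on the log2 scale were CNOT6L (distance 0.0349), CEMIP2 (0.0356) and TRIP12 (0.0447), out of 12956 genes compared.

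M6PR (ENSG00000003056, chromosome 12, 8940363 to 8949955, minus strand) encodes the smaller, cation-dependent mannose 6-phosphate receptor, which binds the same tag on lysosomal enzymes. Its counts were 2032 and 2025 in shCON and 2400 and 2429 in shZDHHC15, or 111 and 120 CPM against 129 and 124 CPM. The groups stood next to each other without overlap, and the log2 fold change was 0.13 (standard error 0.0949, 95% interval -0.08 to 0.33, adjusted p = 0.308), or 0.19 after the length correction (adjusted p = 0.0907). On the opposite strand the gene PHC1 covers 1105 of the 3777 exonic bases of M6PR. PHC1 had between 123 and 157 counts per sample.

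SORT1 (ENSG00000134243, chromosome 1, 109309568 to 109397951, minus strand) encodes sortilin, a receptor for neurotensin, neurotrophin precursors and several lysosomal proteins. It had 2785 and 2396 counts in shCON and 2636 and 2429 in shZDHHC15, or 153 and 142 CPM against 142 and 124 CPM. The higher shZDHHC15 sample came just under the lower shCON sample. Its log2 fold change of -0.15 (standard error 0.0995, 95% interval -0.36 to 0.06) did not pass the test (adjusted p = 0.239). SORT1 has 9160 bases of merged exons. After the length correction it was lower by the test (log2 change -0.36 with a standard error of 0.0873, adjusted p = 0.00456). The call for SORT1 therefore depends on whether the length trend is removed.

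The receptor ratios differed between the groups, and 2 of them include IGF2R, the gene of the 10 with the largest change. Per base of gene length (CPM per kilobase, RPKM), the level of IGF2R was 0.214 and 0.167 of that of M6PR in the shCON samples, and 0.338 and 0.317 of it in the shZDHHC15 samples. The level of SORT1 was 2.64 and 2.92 times that of IGF2R in shCON, and 1.34 and 1.30 times in shZDHHC15. Neither ratio overlapped between groups, and the levels of 72.5% of all genes tested did not overlap either. A permutation of 2 against 2 samples cannot give a two-sided p below 0.333. Both ratios set the longest of the 10 genes against a shorter one, and neither was corrected for the length trend. The level of SORT1 over that of M6PR was 0.565 and 0.488 in shCON and 0.453 and 0.412 in shZDHHC15. That ratio did not overlap between groups either. It too set a longer gene against a shorter one without correction for the length trend.

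Because one mannose 6-phosphate receptor gene rose and the other did not pass the test, the promoter windows of both are shown, each 250 bases before to 50 bases after a RefSeq start site on GRCh38.p14. RefSeq windows were found for 7 of the 10 genes (9 windows). The capitals mark CACGTG, the E-box core bound by basic helix-loop-helix factors such as TFEB, MITF, MYC and USF1. The window of IGF2R, at chr6:159968832-159969131 on the plus strand, holds 3 copies, 132, 74 and 28 bases before the start site. One of the start sites of M6PR, with the window chr12:8949361-8949660 on the minus strand, has 1 copy 80 bases upstream.
IGF2R: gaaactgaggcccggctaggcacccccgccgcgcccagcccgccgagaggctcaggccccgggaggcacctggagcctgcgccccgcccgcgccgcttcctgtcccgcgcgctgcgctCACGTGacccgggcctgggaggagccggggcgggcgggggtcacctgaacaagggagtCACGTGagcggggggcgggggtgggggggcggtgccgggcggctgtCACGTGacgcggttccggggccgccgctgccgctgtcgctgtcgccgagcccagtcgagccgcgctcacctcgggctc
M6PR: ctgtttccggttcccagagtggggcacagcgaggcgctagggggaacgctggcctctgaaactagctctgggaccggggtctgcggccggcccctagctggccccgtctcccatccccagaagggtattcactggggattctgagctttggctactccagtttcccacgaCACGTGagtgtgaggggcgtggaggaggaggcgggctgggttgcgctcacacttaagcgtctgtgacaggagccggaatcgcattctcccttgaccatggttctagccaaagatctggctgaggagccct
CACGTG reads the same on both strands and was present in 7.26% of the 35116 human windows. That share was not matched for base composition. The median GC content was 67.0% in the 9 windows (78.7% in that of IGF2R) and 58.7% over all windows. Of the 9 windows it was found in these 2. Searched on both strands, TTCNNNGAA (the STAT core) was in the VPS35 window (7.66% of all windows), and the interferon-stimulated response element core was in none of the 9 (3.57% of all). CCAAT was in 5 of the 9 windows, 1 each of SORT1, IL6ST, M6PR, SNAP23 and VPS35 (34.6% of all windows). A match is a run of letters and not a measured binding site.

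Of the retromer genes, VPS35 was higher only before the correction for length. VPS35 (ENSG00000069329, chromosome 16, 46656132 to 46689518, minus strand) encodes the long scaffold of the cargo-binding trimer. It had 2871 and 2400 counts in shCON and 3421 and 3488 in shZDHHC15, or 157 and 142 CPM against 184 and 178 CPM. Both shZDHHC15 samples were above both shCON samples. The log2 fold change was 0.27 (standard error 0.094, 95% interval 0.07 to 0.47, adjusted p = 0.0317). After the length correction it was 0.044 (standard error 0.0815, adjusted p = 0.705), and the median of its length class was 0.19. The call was also lost without shCON replicate 2 (0.19) and without shZDHHC15 replicate 1 (0.24) or 2 (0.29). VPS26A (ENSG00000122958, chromosome 10, 69123512 to 69172861, plus strand) encodes an arrestin-like subunit that binds one end of VPS35. Its counts of 1472 and 1146 in shCON and 1434 and 1502 in shZDHHC15 gave 80.7 and 67.9 CPM against 77.0 and 76.5 CPM. Both shZDHHC15 samples lay between the shCON samples, with a log2 fold change of 0.05 (95% interval -0.18 to 0.27, adjusted p = 0.767), or 0.12 after the length correction (adjusted p = 0.37). Per base of length, VPS35 stood at 0.714 and 0.767 of VPS26A in shCON and at 0.874 and 0.851 in shZDHHC15. This ratio did not overlap between groups, and neither did the levels of 72.5% of all genes tested. It sets a longer gene against a shorter one and was not corrected for the length trend. With the length correction the log2 fold change of VPS35 (0.044) was below that of VPS26A (0.12).

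The wider set of 18 other genes of retromer, its sorting nexins and the actin-nucleating WASH complex had 9 genes higher and 2 lower in shZDHHC15, with a median log2 fold change of 0.29 (background 21.7% higher and 20.3% lower). WASHC4, a WASH subunit, went from 675 and 462 counts to 1107 and 1101 counts, a log2 fold change of 0.84 (adjusted p = 1.54e-04). ANKRD50, an adaptor of endosomal recycling, rose by 0.73 (adjusted p = 0.0014), and WASHC2A rose by 0.66 (adjusted p = 0.00137), though a stretch of 4621 bases of WASHC2A is 99.1% identical to WASHC2C and reads of these copies may be split. TBC1D5, which switches off the small GTPase RAB7 on retromer-coated endosomes, fell by 0.48 on the log2 scale (adjusted p = 0.00456), a call lost without shZDHHC15 replicate 2, and its value was -0.76 after the length correction (adjusted p = 5.86e-05). After the length correction the set held 7 higher and 1 lower gene and a median of 0.24. Without shZDHHC15 replicate 1 it held 4 higher and 1 lower, without shZDHHC15 replicate 2 it held 5 higher and 0 lower, and without shCON replicate 2 it held 1 lower. With no filter on low counts 4 were higher. Retriever and its CCC partner complex, which recycle other cargo from endosomes, had 2 genes higher and 8 lower of 16 and a median of -0.29. COMMD6 had the largest change of these (log2 fold change -1.29, adjusted p = 2.53e-05), followed by COMMD3 (-0.91, adjusted p = 0.00657, lost without shCON replicate 2), COMMD8 (-0.86, adjusted p = 1.96e-04) and COMMD5 (-0.75, adjusted p = 7.89e-05). The gene COMMD3-BMI1, with 0 counts in every sample, shares 904 of the exonic bases of COMMD3 (27.3%) on the same strand. The length correction gave 2 higher and 9 lower for retriever and CCC genes.

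**Figure D3:**
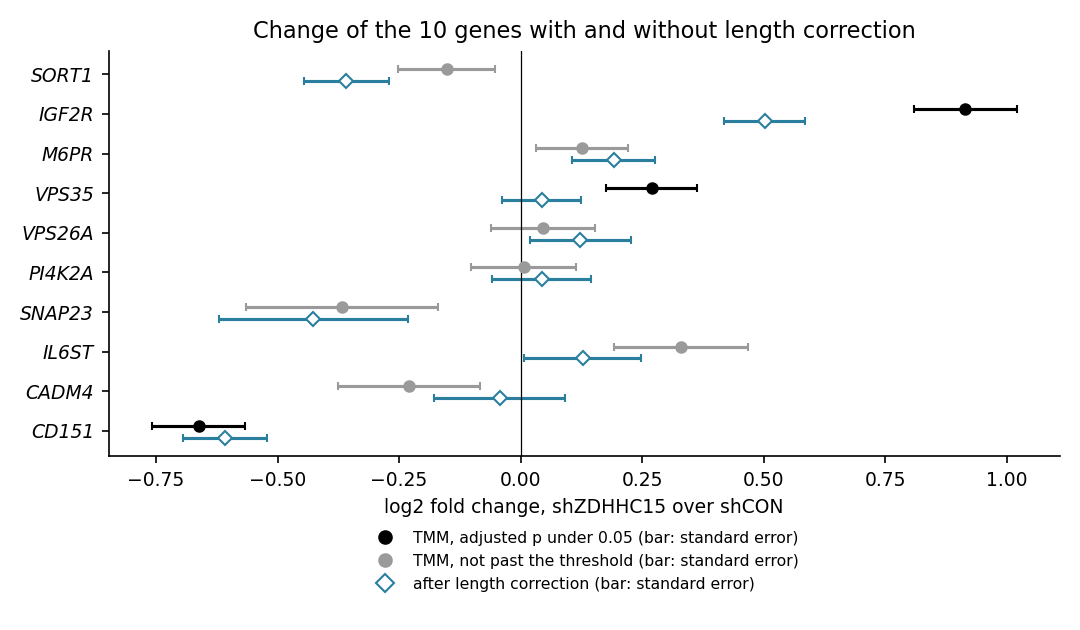
Log2 fold change of the 10 genes (shZDHHC15 over shCON) with standard errors, as circles by the TMM-normalized fit (black where the adjusted p was under 0.05, grey elsewhere) and as open diamonds after the length correction. IGF2R and CD151 stay clear of 0 in both fits, VPS35 moves from 0.27 to 0.044, and SORT1 moves from -0.15 to -0.36.

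Of 19 tested genes for other sorting receptors, the enzymes that build the mannose 6-phosphate tag and the clathrin adaptors, 4 were higher and 7 lower, with a median log2 fold change of -0.20. The count of higher genes was near the background of 21.7%, and the background of lower genes was 20.3%. GNPTAB, which encodes the catalytic subunits of the phosphotransferase that starts the tag, rose from 347 and 241 counts to 670 and 561 (log2 fold change 0.95, adjusted p = 2.27e-04). The clathrin light chain gene CLTB fell from 5546 and 6269 counts to 2719 and 3107 (log2 fold change -1.15, adjusted p = 8.78e-07). The small adaptor subunits AP1S1 (-0.90, adjusted p = 6.81e-06) and AP1S3 (-0.74, adjusted p = 0.00171) also fell. The length correction gave 2 higher and 7 lower, and without shZDHHC15 replicate 2 or with no filter there were also 2 higher. Among 15 tested genes for cargo and ligands of these receptors, 8 were higher and 2 lower, with a median of 0.28 and the same counts after the length correction (4 higher without shZDHHC15 replicate 1, 5 with no filter on low counts). LIPA, lysosomal acid lipase, rose from 763 and 745 counts to 2662 and 2390 (log2 fold change 1.62, adjusted p = 3.27e-08), and 65 of its exonic bases are shared with IFIT2 on the opposite strand, whose counts went from 234 and 208 to 4792 and 3351. The cathepsin genes went both ways. CTSD (0.69, adjusted p = 8.5e-05) and CTSL (0.67, adjusted p = 1.95e-04) rose. CTSB, which had the most counts of the 3 and was added here after its values were seen, fell from 24538 and 25227 counts to 17291 and 17557 (-0.64, adjusted p = 4.49e-05). Other genes overlap 1647 of the exonic bases of CTSD (52.7%). The largest overlap, 1304 bases, is with AC068580.4 on the same strand, which had 5 and 15 counts in shCON and 28 and 25 in shZDHHC15.

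PI4K2A (ENSG00000155252, chromosome 10, 97640686 to 97676434, plus strand) encodes a palmitoylated kinase that makes phosphatidylinositol 4-phosphate on the trans-Golgi network and endosomes, a lipid that recruits clathrin adaptors. Its counts were 971 and 809 in shCON and 971 and 973 in shZDHHC15, or 53.3 and 48.0 CPM against 52.2 and 49.6 CPM. The groups overlapped, and the log2 fold change of 0.01 had a 95% interval from -0.22 to 0.24 (adjusted p = 0.972). Corrected for length it was 0.043 (adjusted p = 0.768). A gene listed at 0 counts in every sample, AL355315.1, shares 1173 of its 4189 exonic bases. Of 15 tested genes for other phosphatidylinositol 4-kinases and for the handling of their product, 3 were higher and 3 lower, near the background shares of 21.7% and 20.3%. PI4KA, the plasma membrane kinase, rose by 0.65 on the log2 scale (adjusted p = 9.38e-05), or by 0.37 corrected for length (adjusted p = 0.00328), with near-identical stretches in the pseudogenes PI4KAP1 and PI4KAP2. Genes for its partners TTC7A (-0.62, adjusted p = 1.34e-04) and FAM126A (-0.49, adjusted p = 0.0059, or -0.83 corrected for length, adjusted p = 3.52e-05) fell, as did the phosphatase gene INPP5K (-0.48, adjusted p = 0.00568, lost without shZDHHC15 replicate 1). The length correction gave 2 higher and 6 lower.

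SNAP23 (ENSG00000092531, chromosome 15, 42491233 to 42545356, plus strand) encodes a SNARE protein that is held on the plasma membrane by a palmitoylated cysteine cluster and drives vesicle fusion there. It had far fewer reads than the other 9 genes, 130 and 121 counts in shCON and 93 and 119 in shZDHHC15, or 7.13 and 7.17 CPM against 4.99 and 6.06 CPM. Both shZDHHC15 samples were the lower ones, and the log2 fold change of -0.37 (standard error 0.198) did not pass the test (adjusted p = 0.15, 95% interval -0.79 to 0.05). Corrected for length it was -0.43 (adjusted p = 0.0943). Its level per length exceeded that of 21% of the tested protein-coding genes. Genes on the opposite strand overlap 1615 of its 5900 exonic bases (27.4%). AC018362.1, with 0 counts in every sample, shares 1394 of these bases, and LRRC57, with 231 to 289 counts per sample, shares 221. Whether the counting dropped reads shared between genes is not given in the sources used here. Of 25 other genes for SNAREs and their binding proteins, 3 were higher and 4 lower, with a median log2 fold change of -0.0031 (2 lower without shZDHHC15 replicate 1). These shares of higher and lower genes lay under the background of 21.7% and 20.3%. NAPB (1.05, adjusted p = 0.00207) and NAPA (0.57, adjusted p = 3.86e-04), which encode adaptors that disassemble SNARE complexes, rose. Other genes overlap 29.8% of the exonic bases of NAPA. SNAP47 (-0.60, adjusted p = 2.78e-04, with 2323 bases shared with JMJD4 on the opposite strand) and the syntaxin gene STX3 (-0.58, adjusted p = 2.04e-04) fell.

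CD151 fell, and the other cell surface genes did not pass the test. CD151 (ENSG00000177697, chromosome 11, 832843 to 839831, plus strand) encodes a palmitoylated tetraspanin that binds the laminin receptors made with integrin alpha 3 and alpha 6. It had 4219 and 4336 counts in shCON and 2743 and 3165 in shZDHHC15, or 231 and 257 CPM against 147 and 161 CPM. Both shZDHHC15 samples were well below both shCON samples. The mean fell from 244 ± 18.1 to 154 ± 9.84 CPM (SD, n = 2). On the log2 scale this was a change of -0.66, with a standard error of 0.0962 and a 95% interval of -0.87 to -0.46 (adjusted p = 7.31e-05). The call held under all 14 alternatives, and with the length correction the value was -0.61 (adjusted p = 7.34e-05). POLR2L on the opposite strand shares 257 of the 3938 exonic bases of CD151, and its counts also went down, from 2381 and 2788 to 1432 and 1575. The part of POLR2L in the counts of CD151 was not tested.

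Other tetraspanin genes and their integrin partners went both ways, with 8 higher and 9 lower of 27 tested and a median log2 fold change of -0.05. The background was 21.7% higher and 20.3% lower. CD82, a tetraspanin known as a suppressor of metastasis, went opposite to CD151, from 1450 and 1458 counts to 3041 and 3061 (log2 fold change 0.94, adjusted p = 2.63e-06). TSPAN12 (1.47, adjusted p = 0.00446) and TSPAN1 (0.80, adjusted p = 0.0068, lost without shCON replicate 1 and with no filter on low counts) were higher, as was TSPAN7 (adjusted p = 0.0202, lost without shCON replicate 2, with no filter and by DESeq2), which had only 6 and 1 counts in shCON and 16 in each shZDHHC15 sample. The length correction gave 8 higher and 9 lower, and without shZDHHC15 replicate 1 there were 4 lower. With no filter on low counts 5 were higher.

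IL6ST (ENSG00000134352, chromosome 5, 55935095 to 55994993, minus strand) encodes gp130, the signalling chain shared by the receptors of the interleukin 6 family. It had 2217 and 1390 counts in shCON and 2342 and 2571 in shZDHHC15, or 122 and 82.4 CPM against 126 and 131 CPM. Replicate 2 of shCON was low and replicate 1 of shCON was close to the shZDHHC15 samples. The log2 fold change of 0.33 (standard error 0.138, 95% interval 0.04 to 0.63) had an adjusted p of 0.068. Without shCON replicate 1 it was 0.61 (adjusted p = 7.2e-07) and without shCON replicate 2 it was 0.067 (adjusted p = 0.682), so its size rested on which control sample was used. With the length correction it was 0.13 (adjusted p = 0.424). Of 18 tested genes for gp130 co-receptors, ligands and signalling proteins, 7 were higher and 3 lower (background 21.7% and 20.3%), with a median of 0.26. The counts were the same after the length correction. The co-receptor gene LIFR rose by 1.40 (adjusted p = 1.68e-06) and the kinase gene JAK2 by 1.34 (adjusted p = 2.82e-06), while the ligand gene IL11 fell by 1.36 on the log2 scale (adjusted p = 5.95e-05).

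CADM4 (ENSG00000105767, chromosome 19, 43622368 to 43639839, minus strand) encodes a nectin-like adhesion molecule of the immunoglobulin superfamily. Its counts were 470 and 559 in shCON and 514 and 444 in shZDHHC15, or 25.8 and 33.1 CPM against 27.6 and 22.6 CPM. The groups overlapped, and the log2 fold change was -0.23 (standard error 0.146, 95% interval -0.54 to 0.08, adjusted p = 0.226), or -0.43 (adjusted p = 0.00813) without shCON replicate 1. Its length class had a median of -0.28, and corrected for length its own value was -0.043 (adjusted p = 0.829). Of 7 tested genes for other CADM proteins, nectins and their partners, 2 were higher and 1 lower (background 21.7% and 20.3%). NECTIN1 (0.53, adjusted p = 0.00108) and NECTIN4 (0.46, adjusted p = 0.00519) rose, and PVR, the poliovirus receptor gene, fell by 0.48 on the log2 scale (adjusted p = 0.00109).

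**Figure D4:**
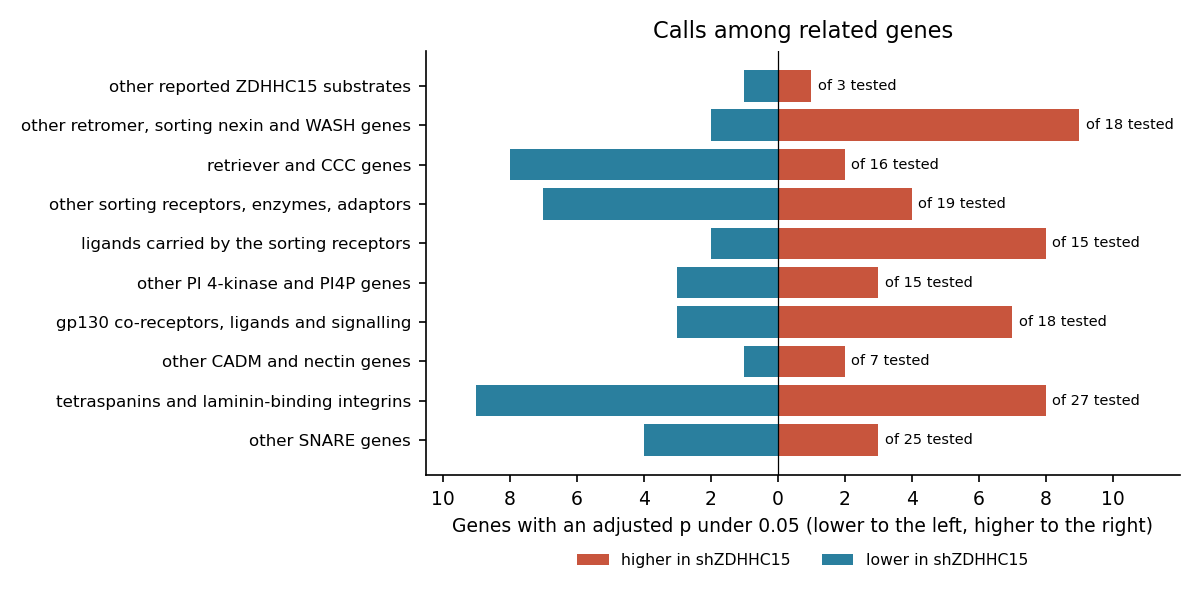
Number of genes in each of 10 lists of related genes that had an adjusted p under 0.05, with bars to the right for genes higher in shZDHHC15 and to the left for genes lower. Retromer and WASH genes (9 higher, 2 lower of 18), receptor cargo (8 and 2 of 15) and gp130 genes (7 and 3 of 18) had more genes higher than lower. Retriever and CCC genes (2 and 8 of 16) and other sorting receptors, enzymes and adaptors (4 and 7 of 19) had more lower than higher. The remaining lists were nearer to even. Over all genes tested, 21.7% were higher and 20.3% lower.

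Among 5 further genes for proteins reported as ZDHHC15 substrates, GAP43 was at 0 in every sample and SNAP25 had 1 count in 1 sample. DLG4, which encodes the synaptic scaffold PSD-95, had 14 to 35 counts per sample and was not called. DNAJC5, the gene of cysteine string protein, rose from 4746 and 4877 counts to 6994 and 6957 (log2 fold change 0.41, adjusted p = 0.00236). WWC1, the gene of KIBRA, had 3131 and 2996 counts against 2518 and 2861 (log2 fold change -0.31, adjusted p = 0.0135), a call lost without shZDHHC15 replicate 1. Corrected for length its value was -0.55 (adjusted p = 2.84e-04). The authors report the opposite direction by RT-qPCR, with WWC1 up in ZDHHC15-depleted HCC1954 cells. The reason for the difference was not tested.

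Per base of length, the highest 3 of the 10 genes and the lowest kept their ranks in every sample, and most of the others changed rank. CD151 was highest, with 37.4 to 65.3 RPKM over the 4 samples, followed by M6PR (29.5 to 34.1) and VPS26A (19.1 to 22.6), and these held ranks 1 to 3 in all 4 samples. VPS35 (14.6 to 18.9) and SORT1 (13.5 to 16.7) followed by mean level, and their ranges overlapped. In shCON replicate 2 CADM4 was at rank 5, above VPS35 at rank 6. IL6ST (8.87 to 14.1), CADM4 (10.1 to 14.8) and PI4K2A (11.4 to 12.7) could not be put in an order beyond their spread. IGF2R was at rank 9 in 3 samples and rank 8 in shZDHHC15 replicate 2, with 5.31 and 6.31 RPKM in shCON and 10.4 and 11.5 RPKM in shZDHHC15. SNAP23 was lowest in all 4 samples (0.847 to 1.22). All of these levels except that of SNAP23 exceeded those of at least 62.3% of tested protein-coding genes.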

How the data were processed

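Total RNA of HCC1954 cells was sequenced on NEBNext Ultra libraries. The authors deposited 1 table of raw read counts per gene, not normalized, with gene positions and lengths. The submitters' processing notes name HISAT2, StringTie, SAMtools and hg38 without versions. The counting tool and its use of strand are not given in the sources used here. All 58735 genes matched GENCODE release 29 in start, end and symbol, and 0 columns of samples were left out.

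Counts were tested with edgeR 4.0.16 (R 4.3.3): filterByExpr, TMM, glmQLFit with the quasi-dispersion of edgeR 4, glmQLFTest of shZDHHC15 against shCON, and Benjamini-Hochberg adjustment over 15817 genes. Standard errors came from the fold change and F. The common biological coefficient of variation was 0.0877. Replicates of a group differed by more than counting noise (chi-square per degree of freedom 8.32 for shCON, 6.79 for shZDHHC15). The test was tried on simulated counts with known changes in 200 genes. It recovered 26% of those changed by 0.5 on the log2 scale, 71% of those changed by 1 and 86.5% of those changed by 1.5. False calls were 1 of 53, 8 of 150 and 14 of 187. The simulation changed far fewer genes than the 6644 called in the data, and the adjusted p depends on that number. These recovery shares therefore need not hold for the data, where VPS35 passed at 0.27. A gene that did not pass may still have changed.

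RPKM used the gene length of the table. Overlaps came from GENCODE exons, and near-identical stretches (at least 150 bases and 97% identity) from BLAST+ 2.17.0. Promoters came from RefSeq. The members and lists were chosen with earlier results of these data known. The named genes are the 10 members, ZDHHC15, the 3 genes nearest to the member with the largest change, and up to 4 called genes of each list by size of change, a few of which are not reported here. DESeq2 1.42.0 and other normalizations, filters and sample sets were alternatives. The length offsets were loess fits per sample on log10 gene length, and a further set added GC content.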

Additional observations from a re-analysis of the deposited data

How the results depend on the processing

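Of 140 recomputed log2 fold changes of the 10 genes (14 alternatives, of which the length correction and the length and GC correction were added after seeing the data), 119 kept their direction and their side of the adjusted p of 0.05. IGF2R, CD151, M6PR and SNAP23 kept both throughout. The VPS35 call was lost with upper-quartile factors (0.24), no filter on low counts (0.25) and the length correction (0.044), and with the length and GC correction it was -0.0051, so 1 gene was then called higher in place of 2. IL6ST was called with library size only (0.40) and SORT1 was called lower with the length correction (-0.36) and the length and GC correction (-0.38), which gave 2 genes lower in place of 1. CADM4 was 0.0205 with the length and GC correction. PI4K2A, close to 0, was -0.0058 with DESeq2 size factors, -0.0245 with upper-quartile factors, -0.0055 with the DESeq2 Wald test and -0.0117 with no filter. The cause of these differences was not tested.

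With each sample left out in turn, where the lone sample is assumed to vary like the other group, VPS35 lay between 0.19 and 0.31 and lost its call without shCON replicate 2 or either shZDHHC15 replicate. IL6ST lay between 0.067 and 0.61, CADM4 between -0.43 (called, without shCON replicate 1) and -0.051, PI4K2A between -0.078 and 0.054, and VPS26A between -0.084 and 0.15. Between 1 and 3 of the 10 genes were then called higher and between 1 and 2 lower.

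The labels number the samples alike in both groups without saying that a number is shared by anything, and the deviations of same-numbered samples correlated at 0.0232 over 15817 genes. With the replicate block, IL6ST was called (0.35, adjusted p = 0.0141) and no other call of the 10 genes changed. Over all genes, 3427 were higher and 3217 lower, against 2282 and 2350 with no filter on low counts, 3926 and 2545 with library size only (60.7% of calls higher, against 51.6%), 2645 and 2704 with the DESeq2 Wald test and 3723 and 3502 with the replicate block. With no filter, the counts of higher genes also fell from 9 to 4 for retromer and WASH genes and from 8 to 5 for receptor cargo and for tetraspanins. With 2 samples per group, Dixon's test for outlying samples could not be run.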
